A study of Mus musculus with 79 samples.

Results

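The Eph receptors, the ephrins, the Slits, the Robos, the netrins and the netrin receptors are the classical guidance cues of growing axons and migrating cells. Members were taken by symbol alone, and 38 of the 23361 genes in the count tables matched: 8 ephrins, 14 Eph receptors, 3 Slits, 4 Robo receptors, 4 netrins and 5 netrin receptors. Their levels were followed in mice in which the common peroneal nerve was sutured across to the tibial nerve stump through a silicone conduit, either at once (immediate repair) or 8 weeks after the tibial nerve was cut (delayed repair). The mice carried eGFP under a human S100β promoter, and the immediate group had a sham incision 8 weeks before its repair that left the nerve uncut, so both groups shared the transgene but not the same earlier surgery. Libraries came from the whole tibial distal stump at day 5 (delayed n = 9, immediate n = 7), and from cells sorted out of the regenerative bridge at day 5 and day 14, 1000 cells to a library. The sorted cells were macrophages (day 5, delayed n = 9 and immediate n = 8; day 14, n = 7 and n = 8) and eGFP-positive cells, which the labels call Schwann cells (SC; day 5, n = 9 and n = 7; day 14, n = 7 and n = 8). The gate for the eGFP-positive cells was negative for surface markers of leukocytes, fibroblasts, endothelial cells and red blood cells. The 79 libraries came from 32 mice of both sexes, 1 mouse to a library, and 31 mice gave both sorted populations.

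Ephrins are held on the membrane of one cell and bind Eph receptor tyrosine kinases on another, so that signals run into both cells and contact usually ends in repulsion or sorting. Slits are secreted repellents that bind Robo receptors, while netrins attract through Dcc and repel through the Unc5 receptors. In a cut peripheral nerve, ephrin-B to EphB2 contact between fibroblasts and Schwann cells is known to gather Schwann cells into cords that axons follow, and Slit3 of bridge macrophages acting on Robo1 of Schwann cells is known to keep cells on course.

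Library totals ran from 3898778 to 9212709 counts in the distal stump, from 14928745 to 28499407 in macrophages and from 11614940 to 30796823 in SC. A count of 3, taken as the floor of detection, was worth at most 0.769, 0.201 and 0.258 CPM (a gene's count relative to the library total) in the 3 kinds of library, and covers counting error only. Levels are CPM with trimmed mean of M values (TMM) scaling and are written as lowest, median and highest library. The SC libraries went against their label in part. The Schwann cell transcription factor gene Sox10 was at 0, 10.2 and 74.4 CPM in delayed day 5 SC libraries and at 18.2, 57.6 and 151 CPM in immediate ones. The dendritic cell gene Ccr7 was at 5263, 6401 and 10592 CPM in the same delayed libraries and at 4904, 7464 and 11993 CPM in the immediate ones. They are called SC here as the sorted population, and no member can be assigned to Schwann cells from them. In whole tissue, fewer cells of a type and less RNA per cell cannot be told apart.

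Across the 3 kinds of library more members were read in the distal stump than in the sorted cells. Of all genes, too, more reached 5 CPM in 6 libraries in the stump (12229). Those counts were 8409 and 8589 in macrophages and 9604 and 10226 in SC, at day 5 and day 14. All 38 members had counts in some stump library, 31 of them in all 16, and 23 had a median of 5 CPM or more. In macrophages no member had a median of 5 CPM, 3 had a median of 1 CPM or more, and 7 (Efna3, Efna4, Epha5, Epha6, Epha10, Ephb1 and Unc5d) were at 0 in all 32 libraries. In SC 4 members had a median of 5 CPM or more, and Epha8, Epha10 and Unc5d were at 0 in all 31 libraries. Efna2, Ephb6 and Ntn5 went the other way, with medians of 34.5, 7.48 and 1.94 CPM over all SC libraries. In the stump these were 1.84, 5.52 and 0.969 CPM. The stump libraries were made from rRNA-depleted RNA and the sorted ones from amplified cDNA, so these levels stand side by side without a test.

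**Figure D1:**
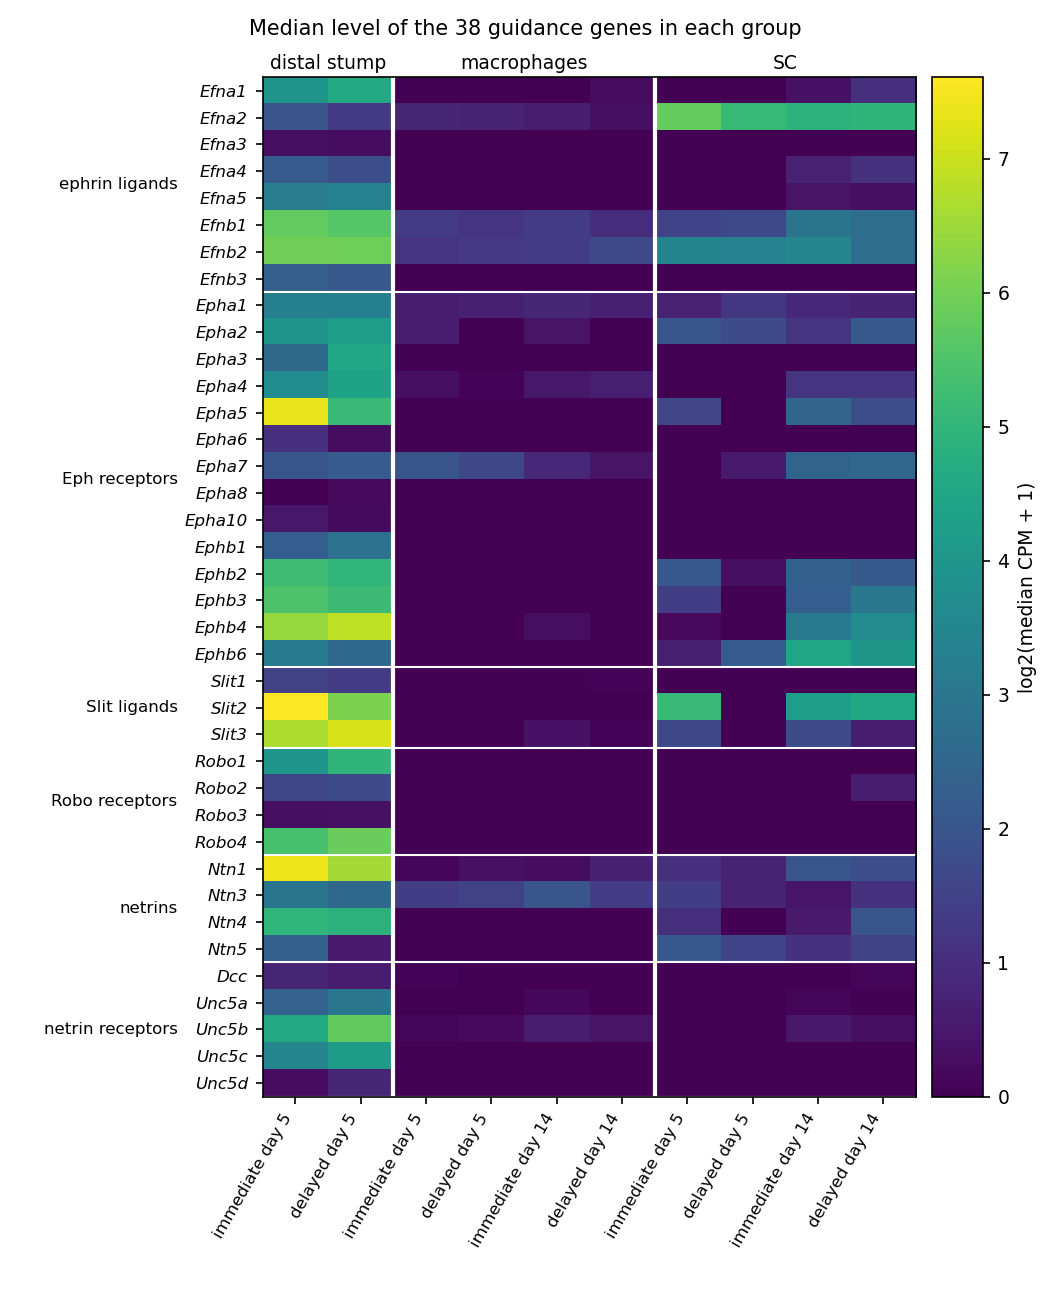
Median level of the 38 members (rows, by role) in the 10 groups (columns), as log2 of the median CPM plus 1. The stump columns are lit in every role group, the macrophage columns are low, with no median over 2.98 CPM, and in the SC columns Efna2 has the highest median of each group.

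The promoters of the members that differed most clearly in the stump are shown first, with features of their starts that the choice by symbol did not use. RefSeq promoter entries (GRCm38.p6) were found for 33 of the 38 members. In the 250 bases before the start, the median GC content was 65.2% over the 38 member entries and 52.4% over all 32851 entries. The GC box GGGCGG, read on both strands, lay in 26 of the 38 member entries (68.4%) and in 32.7% of all entries. The TATA box TATAAA lay in 2 member entries (5.26%, Slit2 and Efnb2) against 12.4% of all entries, the SOX-type core ACAAAG in 2 (5.26%) against 16.5%, the ETS-type core CCGGAAG in 1 (2.63%) against 6.91%, and the GATA-type core AGATAA in 3 (7.89%) against 9.99%. The 4 sequences below are the stretches before the start of Slit2 (chr5:47982905-47983154, plus strand), Epha5 (chr5:84417383-84417632, minus strand), Unc5b (chr10:60831582-60831831, minus strand) and Robo1 (chr16:72662899-72663148, plus strand, a start inside the annotated gene), each 5′ to 3′ on the strand of the gene, with GC boxes and TATA boxes in capitals.
Slit2: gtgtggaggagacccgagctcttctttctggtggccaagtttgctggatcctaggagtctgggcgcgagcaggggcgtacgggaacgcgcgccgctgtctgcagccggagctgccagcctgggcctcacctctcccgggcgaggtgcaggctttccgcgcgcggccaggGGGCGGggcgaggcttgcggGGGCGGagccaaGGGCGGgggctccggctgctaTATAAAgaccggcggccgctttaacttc
Epha5: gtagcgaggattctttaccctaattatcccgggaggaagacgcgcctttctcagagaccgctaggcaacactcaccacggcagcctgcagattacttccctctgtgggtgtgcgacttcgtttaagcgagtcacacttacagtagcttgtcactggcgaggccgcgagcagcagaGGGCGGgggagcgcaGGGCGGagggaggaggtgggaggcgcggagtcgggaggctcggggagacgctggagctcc
Unc5b: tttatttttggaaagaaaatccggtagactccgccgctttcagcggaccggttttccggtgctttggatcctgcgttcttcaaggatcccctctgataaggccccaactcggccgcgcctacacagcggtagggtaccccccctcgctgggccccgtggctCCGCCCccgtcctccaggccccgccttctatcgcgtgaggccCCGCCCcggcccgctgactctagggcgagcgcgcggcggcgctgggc
Robo1: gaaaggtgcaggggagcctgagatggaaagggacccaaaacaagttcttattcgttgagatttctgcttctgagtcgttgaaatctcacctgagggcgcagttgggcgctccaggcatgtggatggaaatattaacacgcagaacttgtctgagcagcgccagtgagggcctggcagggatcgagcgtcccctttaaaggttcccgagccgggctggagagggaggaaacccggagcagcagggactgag
Slit2 held 3 GC boxes and a TATA box whose first base lay 28 bases before the start, Epha5 held 2 GC boxes, Unc5b held 2, and Robo1 held none. Slit2 and Epha5 fell after delay, and Unc5b and Robo1 rose, as described next. A letter match is no binding site.

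The distal stump comparison asked which guidance genes differed in the tissue ahead of the axons when repair came 8 weeks late. After delay, 13 of the 24 members tested differed, 9 higher and 4 lower, at an adjusted p under 0.05 (edgeR quasi-likelihood test, Benjamini-Hochberg over 12229 genes). Over all genes tested 26.2% passed in either direction, 12.7% higher and 13.5% lower. The netrin receptors Unc5a, Unc5b and Unc5c, the Robo receptors Robo1 and Robo4, the receptors Epha3, Epha4 and Ephb4 and the ligand Efna1 rose. The Slit ligand Slit2, the netrin Ntn1, the receptor Epha5 and the ligand Efnb1 fell. The median log2 fold change of the 24 was 0.20, against 0.02 over all genes, and 17 of the 24 had an unadjusted p under 0.05, as did 4703 of all 12229 genes. The filter asked for 5 CPM in 6 libraries. Of the 24, 18 passed 5 CPM in all 16 libraries, and 11 of those 18 were called. The other 2 called were Epha3, past 5 CPM in 9 delayed and 4 immediate libraries, and Unc5a, past it in 7 and 1, so both reached 6 libraries only with the delayed group, where they are high. With no filter both were still called, Epha3 at 1.92 (edgeR adjusted p = 0.0037) and Unc5a at 0.63 (edgeR adjusted p = 0.0268). The other 14 members (Dcc, Efna2, Efna3, Efna4, Efnb3, Epha6, Epha7, Epha8, Epha10, Ntn5, Robo2, Robo3, Slit1 and Unc5d) were below it. Without the filter 17 of 38 were called, 10 higher and 7 lower, as were 3137 of all 22165 genes then tested. The 4 added were Ntn5 at -2.70 on the log2 scale (SE 0.58, edgeR adjusted p = 0.00343), Epha6 at -2.53 (SE 0.53, edgeR adjusted p = 0.00303), Efna2 at -1.01 (SE 0.22, edgeR adjusted p = 0.00423) and Unc5d at 1.55 (SE 0.48, edgeR adjusted p = 0.0363), all with medians under 5 CPM in both groups.

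**Figure D2:**
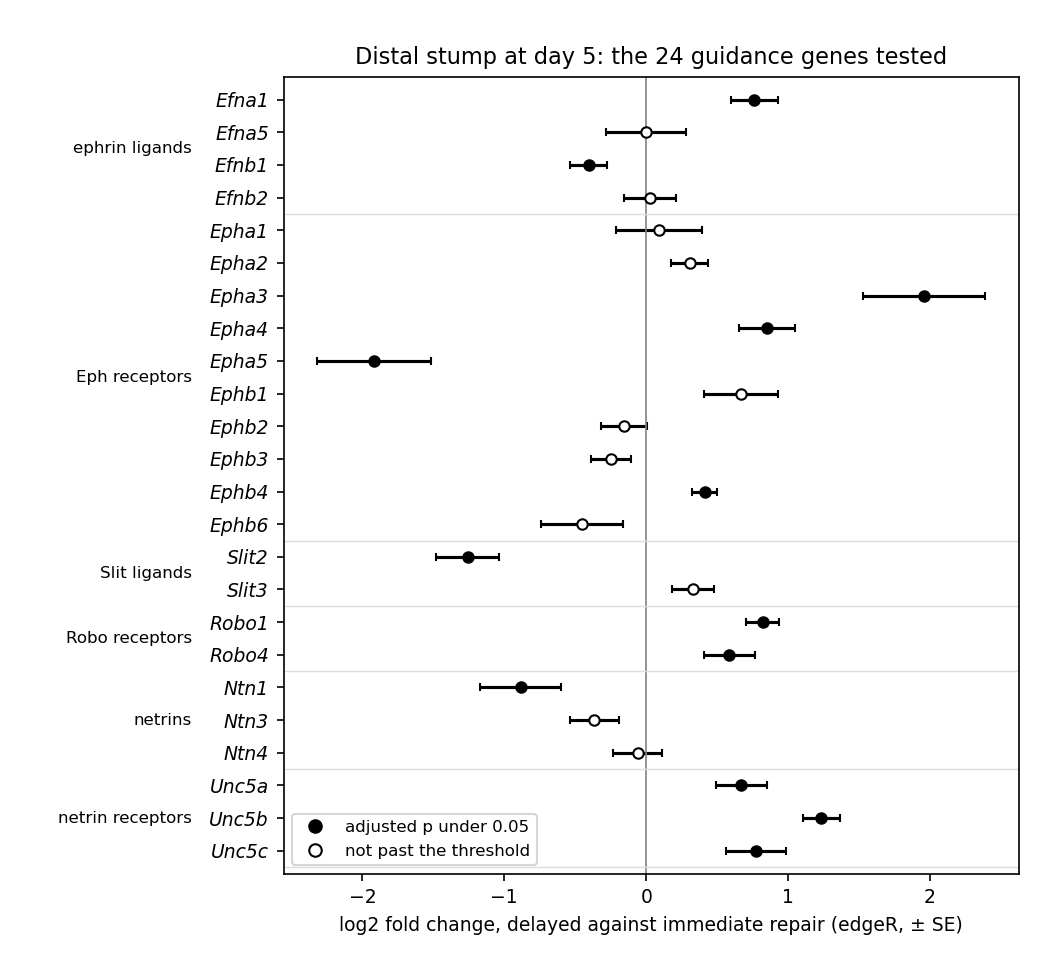
Log2 fold change of delayed against immediate repair in the distal stump for the 24 members tested, by role, with bars of ± SE derived from the edgeR F statistic (n = 9 and n = 7), and filled points for an adjusted p under 0.05. The Robo and Unc5 receptors tested sit to the right of 0, while Slit2, Ntn1 and Epha5 sit to the left.

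Of the secreted ligands, Slit2 showed the clearest fall. Slit2 encodes a repellent that signals through Robo1 and Robo2. Its level was 27.9, 67.6 and 115 CPM after delayed repair and 125.2, 194 and 224 CPM after immediate repair. The groups did not overlap. Slit2 fell by 1.26 on the log2 scale (SE 0.22, edgeR adjusted p = 0.000603), lower in 9 of 9 delayed libraries than the immediate mean. Absence of overlap was seen for 3 members in all (Slit2, Unc5b and Robo1), and for 4.68% of all genes tested.

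Slit3, a second Slit, stood at 85.7, 141 and 163 CPM after delay and 76.8, 100 and 160 CPM after immediate repair. These ranges overlapped, and its log2 difference of 0.33 (SE 0.15) did not pass (edgeR adjusted p = 0.107). Per kilobase of exon Slit3 led the Slits in the stump. That length joins the exons of all annotated transcripts, 25433 bases for Slit2 and 6067 for Slit3. In CPM Slit2 was the higher of them after immediate repair (median 194 CPM). Slit1 was under 3 CPM in all 16 stump libraries.

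Ntn1, the founding secreted netrin, was at 54.9, 95.4 and 164 CPM after delay and at 95.2, 168 and 320 CPM after immediate repair. All 9 delayed libraries lay under the immediate mean, but the ranges overlapped. Ntn1 fell by 0.88 on the log2 scale (SE 0.29, edgeR adjusted p = 0.0302). This call was lost with the replicate number as a block (edgeR adjusted p = 0.0845) and without delayed replicate 2 or 4 or immediate replicate 1, 3 or 6 (edgeR adjusted p from 0.0503 to 0.0685). The laminin-like netrin Ntn4 differed by -0.06 (SE 0.18), and Ntn3 by -0.37 (SE 0.17, edgeR adjusted p = 0.123). Ntn5, below the filter, was at 0.171, 0.458 and 2.51 CPM after delay and at 0.406, 4.17 and 12.4 CPM after immediate repair.

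The 3 netrin receptors and 2 Robo receptors that could be tested rose. Of these, Unc5a reached the filter only with the delayed group, where it is high. Unc5b, a repulsive netrin receptor also known from endothelial tip cells, was at 46.7, 53.3 and 59.3 CPM after delay and at 13.6, 23.5 and 29.4 CPM after immediate repair. The lowest delayed library was above the highest immediate one. Unc5b rose by 1.23 on the log2 scale (SE 0.13, edgeR adjusted p = 6.92e-06).

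Unc5c rose by 0.77 (SE 0.21, edgeR adjusted p = 0.0129), from 7.93, 10.1 and 14.6 CPM to 12.2, 17.1 and 33.6 CPM. Unc5a rose by 0.67 (SE 0.18, edgeR adjusted p = 0.0106), from 3.02, 4.26 and 5.69 CPM to 4.77, 6.93 and 10.5 CPM. All 9 delayed libraries lay above the immediate mean for both genes, and the ranges overlapped. Dcc, the attractive netrin receptor, stayed under 1.5 CPM in all 16 stump libraries, and Unc5d under 1.4 CPM.

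Robo1, the main Slit receptor of migrating cells, was at 21.4, 30.2 and 33.8 CPM after delay and at 13.7, 15.04 and 19.5 CPM after immediate repair, again without overlap. Robo1 rose by 0.82 on the log2 scale (SE 0.12, edgeR adjusted p = 0.000106). Robo4, the Robo of the endothelium, rose by 0.59 (SE 0.18, edgeR adjusted p = 0.0245), from 23.7, 40.6 and 48.9 CPM to 34.6, 57.7 and 87.4 CPM, with 8 of 9 delayed libraries above the immediate mean. The Robo4 call was lost without delayed replicate 3 or 4 or immediate replicate 2, 6 or 7 (edgeR adjusted p from 0.0519 to 0.0598). Robo2 had medians of 2.42 CPM after delay and 2.05 CPM after immediate repair, and Robo3 stayed under 1 CPM in all 16 libraries.

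**Figure D3:**
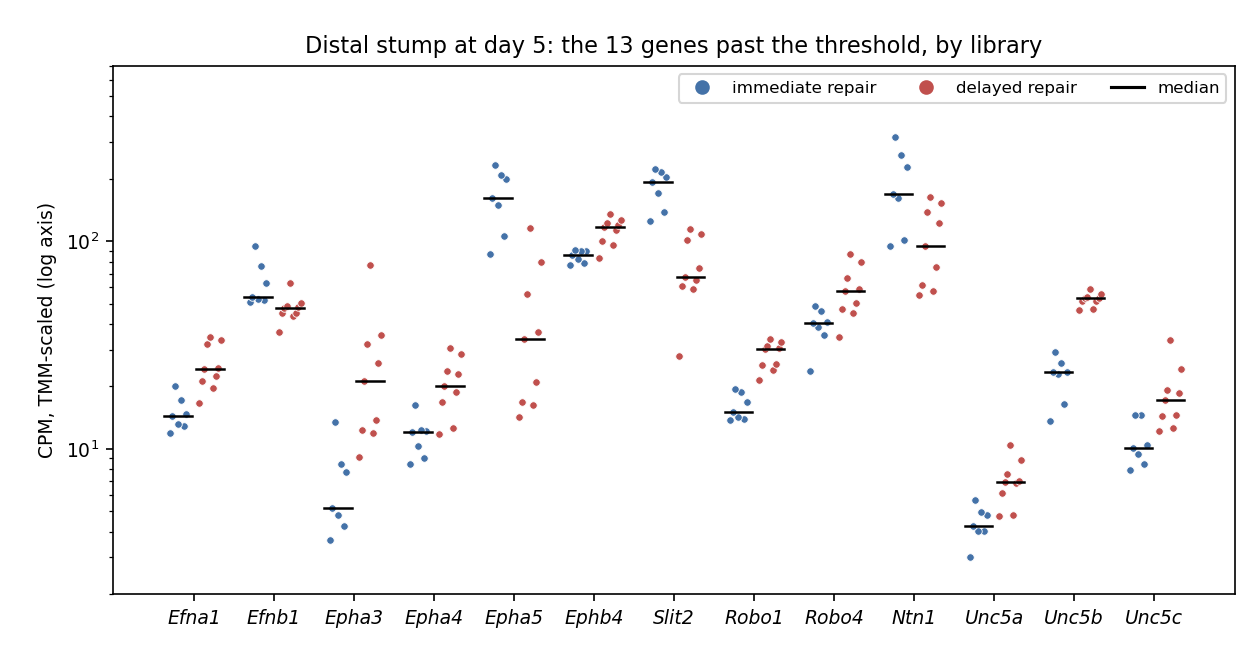
Level of the 13 members past the threshold in each distal stump library (points; CPM on a log axis), with the median of each repair group as a bar. The groups are apart for Slit2, Robo1 and Unc5b, and Epha3 and Epha5 show the widest spread among delayed libraries.

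Among the 24 members that passed the filter, the Eph receptors included the largest differences in both directions. The upward one, Epha3, reached the filter only with the delayed group, where it is high. Epha5, a neuronal EphA receptor, was at 14.3, 34.0 and 117 CPM after delay and at 87.0, 161 and 232 CPM after immediate repair. All 9 delayed libraries lay under the immediate mean, and the ranges overlapped. Epha5 fell by 1.92 on the log2 scale (SE 0.40, edgeR adjusted p = 0.00226). Epha3, an EphA receptor of mesenchymal and neuronal cells, was at 9.19, 21.2 and 77.4 CPM after delay and at 3.66, 5.21 and 13.4 CPM after immediate repair. Epha3 rose by 1.96 (SE 0.43, edgeR adjusted p = 0.00314), with all 9 delayed libraries above the immediate mean.

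Epha4, which binds both ephrin classes, rose by 0.85 (SE 0.20, edgeR adjusted p = 0.00471), from 8.46, 12.1 and 16.2 CPM to 11.8, 20.2 and 30.7 CPM. Ephb4, the venous receptor for ephrin-B2, was per kilobase the most abundant Eph receptor in the stump, though Epha5 was higher in CPM after immediate repair. Ephb4 rose by 0.41 (SE 0.09, edgeR adjusted p = 0.00318), from 77.2, 85.7 and 90.5 CPM to 83.1, 117 and 136 CPM. The other 6 tested did not pass. Ephb2, the receptor of the cord-sorting contact, stood at 20.9, 31.4 and 53.3 CPM after delay and at 31.8, 37.3 and 48.4 CPM after immediate repair, a log2 difference of -0.16 (SE 0.16). Ephb1 differed by 0.67 (SE 0.26, edgeR adjusted p = 0.0689), Epha2 by 0.31 (SE 0.13), Ephb3 by -0.25 (SE 0.14), Ephb6, a kinase-dead member, by -0.45 (SE 0.29) and Epha1 by 0.09 (SE 0.30).

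Among the ephrins, Efna1 rose and Efnb1 fell. Efna1 was at 16.7, 24.2 and 34.6 CPM after delay and at 12.0, 14.4 and 19.99 CPM after immediate repair, a rise of 0.76 on the log2 scale (SE 0.16, edgeR adjusted p = 0.00278). Efnb1 was at 36.5, 48.0 and 62.9 CPM and at 51.1, 53.7 and 94.5 CPM, a fall of 0.40 (SE 0.13, edgeR adjusted p = 0.0301). All 9 delayed libraries were above the immediate mean for Efna1 and under it for Efnb1. The Efnb1 call was lost without delayed replicate 4 or 8 or immediate replicate 3 or 6 (edgeR adjusted p from 0.0507 to 0.0708). Efnb2, the ligand of arterial endothelium, differed by 0.02 (SE 0.18) at medians of 60.2 and 61.5 CPM, and Efna5 by -0.00 (SE 0.28).

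Cell type markers moved in the same stump libraries. The summed level of 8 Schwann cell markers was 126, 300 and 829.1 CPM after delay and 1417, 2454 and 3348 CPM after immediate repair, lower after delay by a 2-sided exact permutation test (adjusted p = 0.000175 over 6 marker sums, from the smallest p the test can give). All 8 of those markers fell, Sox10 by 2.02 on the log2 scale (SE 0.35). The sum of 6 endothelial markers was 996, 1144 and 1411 CPM after delay and 613, 712 and 861 CPM after immediate repair (exact permutation test, adjusted p = 0.000175), and Tek rose by 0.69 (SE 0.09). The mural sum was also higher (exact permutation test, adjusted p = 0.000175), with 3 of its 6 genes higher and Cspg4 lower, and so was the macrophage sum (exact permutation test, adjusted p = 0.0158), with 2 of 6 genes higher. The dendritic cell sum was higher too (exact permutation test, adjusted p = 0.0158), with 1 of 6 genes higher, whereas the fibroblast sum did not pass (exact permutation test, adjusted p = 0.0635) and none of its 5 genes did. The neuron sum was 11.8, 14.8 and 75.7 CPM after delay and 15.1, 37.2 and 85.8 CPM after immediate repair, and the skeletal muscle sum 2.54, 10.5 and 2263 CPM and 2.03, 2.62 and 6.46 CPM, neither of them tested. No marker of the 6 lists tested was at 0 in all libraries of a stump group. The part of these cell types in the members' differences was not tested.

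**Figure D4:**
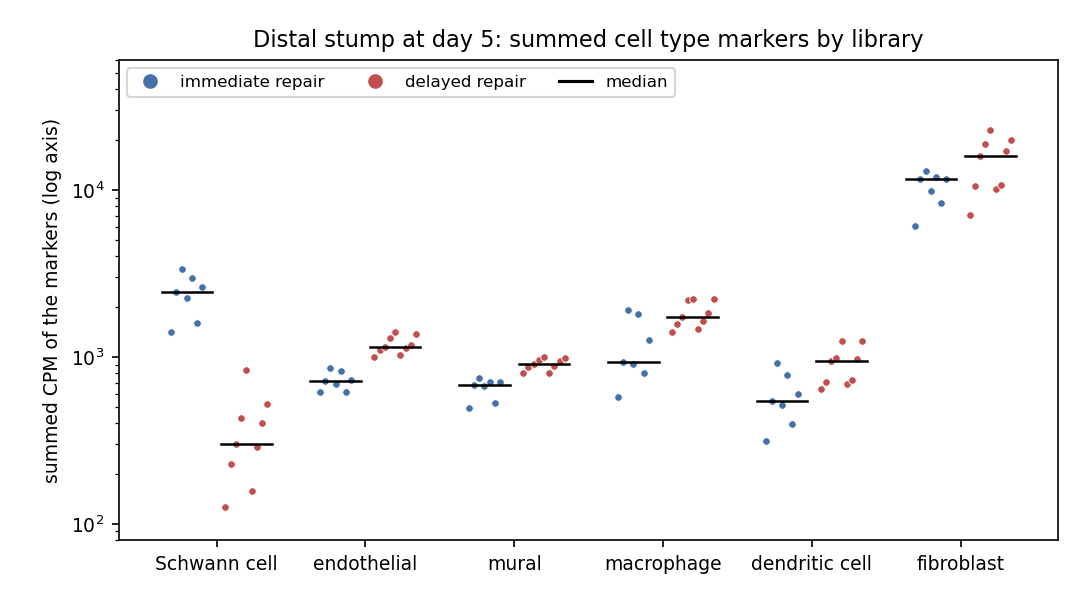
Summed CPM of 6 marker lists in each distal stump library (points; log axis), with group medians as bars. The Schwann cell, endothelial and mural sums of the repair groups do not overlap, with the Schwann cell sum lower after delay.

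Genes known to act with these families moved in both directions in the stump. Of 17 extracellular partners tested 6 differed (2 higher, 4 lower), and of 43 intracellular partners 19 did (10 higher, 9 lower), against 26.2% of all genes. Dag1, encoding dystroglycan, which binds Slits, fell by 1.78 on the log2 scale (SE 0.19, edgeR adjusted p = 7.69e-06), from a median of 748 to 182 CPM. Flrt3, encoding a membrane ligand of the Unc5 receptors, fell by 2.54 (SE 0.28, edgeR adjusted p = 7.86e-06), from 80.1 to 13.7 CPM. Chn1, a Rac-inactivating protein that acts behind Epha4, fell by 1.37 (SE 0.18, edgeR adjusted p = 4.95e-05). Rgs3, which binds the tail of ephrin-B proteins, rose by 0.61 (SE 0.12, edgeR adjusted p = 0.00104), Vav3 by 0.70 (SE 0.13, edgeR adjusted p = 0.00111) and the actin-binding Ablim1 by 0.60 (SE 0.12, edgeR adjusted p = 0.00155).

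In SC the question was whether repair timing or the day after repair moved the same genes in cells of the bridge. Few members could be tested. At day 5 4 members passed the filter and 0 were called, and at day 14 11 passed and 0 were called (edgeR), where 0 of 9604 and 0 of 10226 genes were called in all, which is 0 percent of either. None of these members had an unadjusted p under 0.05 in edgeR, and DESeq2 and limma-voom called none. The median log2 difference of the members was -0.51 at day 5 and -0.15 at day 14, against -0.01 over all genes at both days.

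Efna2, an ephrin-A ligand, was the most abundant member in SC on either scale, CPM or CPM per kilobase. At day 5 it was at 14.8, 33.2 and 119 CPM after delayed and at 30.7, 54.6 and 128 CPM after immediate repair. At day 14 it was at 16.4, 30.8 and 46.7 CPM and at 13.7, 28.4 and 72.4 CPM. The repair groups overlapped throughout, with log2 differences of -0.51 (SE 0.37) and -0.22 (SE 0.31).

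Slit2 was uneven at day 5. It was at 0 in 5 of 9 delayed libraries, whose highest value was 24.8 CPM, and at 0 in 2 of 7 immediate libraries, whose median was 33.8 CPM and highest value 58.7 CPM. At day 14 no SC library was at 0, with 10.3, 22.8 and 43.9 CPM after delayed and 4.20, 17.9 and 30.0 CPM after immediate repair. The log2 differences were -1.92 (SE 1.55, edgeR adjusted p = 0.936) at day 5 and 0.45 (SE 0.41, edgeR adjusted p = 0.998) at day 14. Over the other settings the day 5 difference ran from -4.39 (limma-voom) to -1.74 (sex as a covariate), and passed in none. Summed Schwann cell markers in these libraries were at 156, 248 and 435 CPM (delayed) and 212, 520 and 1197 CPM (immediate) at day 5, and at 458, 1416 and 2584 CPM and 404, 610 and 1342 CPM at day 14. Their part in the Slit2 values was not tested.

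The other members tested in SC also overlapped between repair groups. Efnb2 was at 2.88, 9.02 and 18.8 CPM after delayed and 0.0919, 9.57 and 32.9 CPM after immediate repair at day 5, a log2 difference of -0.51 (SE 0.66) whose sign changed with limma-voom (0.029) and the replicate block (0.079), and differed by -0.55 (SE 0.85) at day 14. Ephb6 differed by -0.27 (SE 1.36) at day 5 and by -0.15 (SE 0.55) at day 14. Epha5 was at 0, 2.48 and 9.33 CPM after delayed and at 0, 4.58 and 26.98 CPM after immediate repair at day 14, a log2 difference of -1.33 (SE 1.09) that ran from -2.18 with the replicate block to -0.23 with limma-voom.

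**Figure D5:**
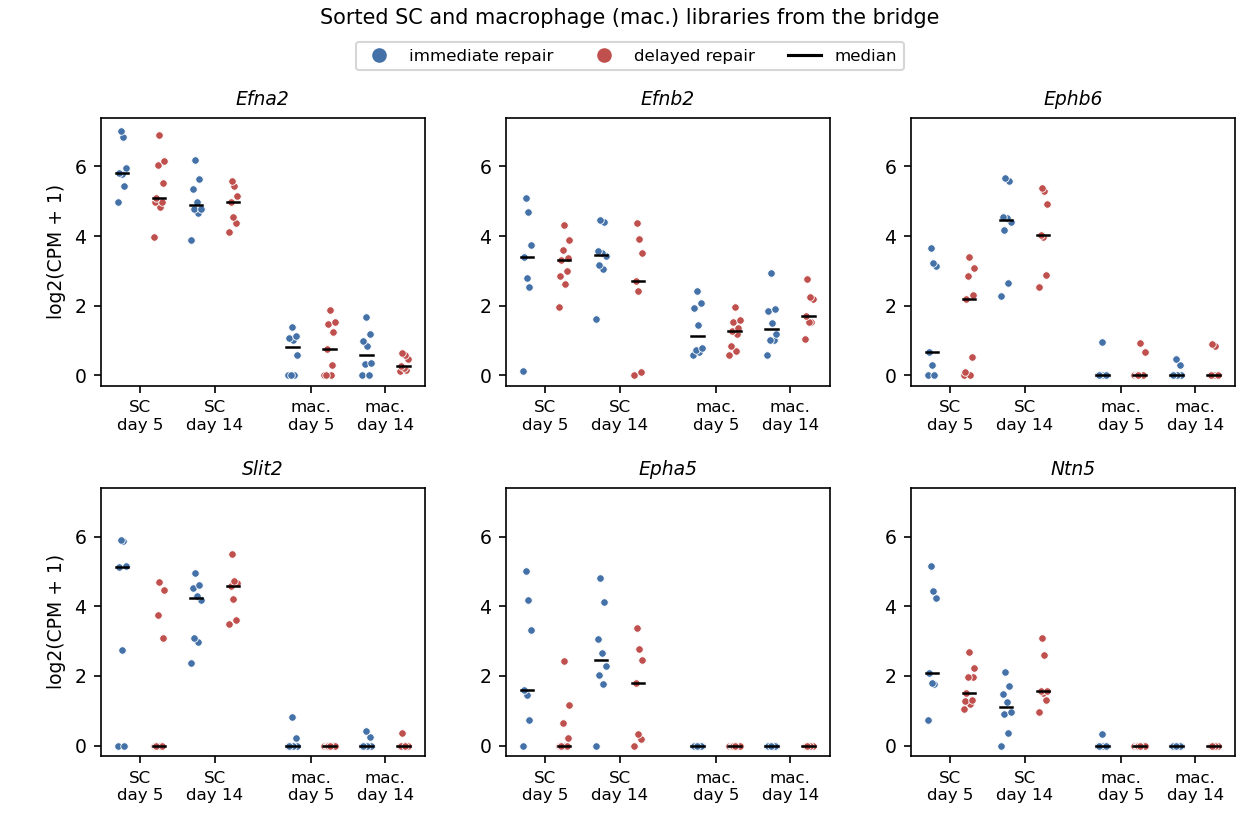
Levels of Efna2, Efnb2, Ephb6, Slit2, Epha5 and Ntn5 as log2(CPM + 1) in each sorted SC and macrophage library (points), by day and repair group, with medians as bars. Efna2 is high in all SC libraries, Slit2 is at 0 in part of the day 5 SC libraries, and the macrophage libraries are near 0 except for low Efna2 and Efnb2.

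Between day 5 and day 14, 1 of 15 members tested changed in immediate SC, and 0 of 15 in delayed SC (edgeR), against 7.21% and 6.44% of all 10923 genes tested. Ntn5, a netrin-like gene, fell by 3.07 on the log2 scale in immediate SC (SE 0.81, edgeR adjusted p = 0.0178), from 0.677, 3.27 and 34.8 CPM at day 5 to 0, 1.18 and 3.31 CPM at day 14, with 8 of 8 day 14 libraries under the day 5 mean. That mean was 11.7 CPM, far over the day 5 median, so many day 5 libraries lay under it too. In delayed SC Ntn5 was at 1.08, 1.87 and 5.46 CPM and then at 0.939, 1.94 and 7.55 CPM. The difference between those changes was 3.42 (SE 1.07, unadjusted p = 0.00327, edgeR adjusted p = 0.638), so that 0 members differed in their change by repair group, 0 percent of all genes did, and Ntn5 alone had an unadjusted p under 0.05. DESeq2 gave no adjusted p for Ntn5 and called 0 members, limma-voom gave an adjusted p of 0.0789, and the block by replicate number one of 0.0737. Ntn5 also fell below the filter, and so had no test, when 1 of 6 libraries was left out (delayed day 5 replicate 5, immediate day 5 replicate 1, 7 or 8, delayed day 14 replicate 1 or 2).

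Ephb6 stood higher at day 14 without passing. It was at 0, 3.61 and 9.45 CPM at day 5 and at 4.77, 15.3 and 40.2 CPM at day 14 in delayed SC, and at 0, 0.587 and 11.6 CPM and then 3.87, 21.1 and 49.97 CPM in immediate SC. The log2 differences were 2.68 (SE 1.06, edgeR adjusted p = 0.125) and 2.54 (SE 1.14, edgeR adjusted p = 0.187). Ephb3 differed by 3.05 (SE 1.36, edgeR adjusted p = 0.180) and Ephb4 by 3.01 (SE 1.37, edgeR adjusted p = 0.189) in delayed SC, and these and Ephb6 were the 3 of 15 with an unadjusted p under 0.05 there, as were 2393 of all 10923 genes. DESeq2 called 0 and limma-voom 1, Efnb1. Efna2 differed by -0.88 in immediate SC (SE 0.36, edgeR adjusted p = 0.142).

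Of the partners in SC, 2 of 13 extracellular and 3 of 39 intracellular ones changed with the day in immediate SC, and again 2 of 13 and 3 of 39 in delayed SC, against 7.21% and 6.44% of all genes, so that the intracellular share (7.69% in each) was near that of all genes. Flrt3 fell by 0.77 (SE 0.21) in immediate and by 0.73 (SE 0.21) in delayed SC, and the kinase gene Src by 1.17 (SE 0.30) and 0.96 (SE 0.29). The GTPase gene Rhoa fell by 0.48 (SE 0.14) and 0.65 (SE 0.14). Myo9b fell by 0.97 (SE 0.23) and Rgmb, a ligand of the netrin receptor neogenin, by 0.75 (SE 0.20) in immediate SC, while Dag1 rose by 1.85 (SE 0.54) and Rasa1, a Ras-inactivating protein that binds Eph receptors, by 0.67 (SE 0.20) in delayed SC. In the same libraries 2 of 6 dendritic cell markers fell in immediate and 1 of 6 in delayed SC, Flt3 by 0.94 (SE 0.24) and 0.83 (SE 0.23). In delayed SC 4 of 8 Schwann cell markers rose, as did 1 of 5 fibroblast markers (Col1a1), and in immediate SC none of either list passed. The part of those cells was not tested. Scaling by library size alone moved the median of all genes from 0.06 to 0.24 in immediate and from 0.08 to 0.26 in delayed SC, and the share of calls that were higher from 28.3% to 54.4% and from 48.9% to 72.7%.

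In macrophages no member reached 5 CPM in 6 libraries, so 0 of 38 were tested for repair timing or day. The highest value of any member in any of the 32 libraries was 7.17 CPM, for Ntn3. Ntn3 had medians of 1.77 and 1.63 CPM (delayed and immediate) at day 5 and of 1.50 and 2.98 CPM at day 14. Efnb2 had medians of 1.42, 1.24, 2.28 and 1.55 CPM in the same order, and Efnb1 of 1.19, 1.51, 0.980 and 1.50 CPM. Slit3, the macrophage cue of the bridge named above, was at 0 in 8 of 9 delayed and 6 of 8 immediate libraries at day 5 and in 2 of 7 and 3 of 8 at day 14, and its highest value was 5.76 CPM.

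Epha7 was the only macrophage member with a change in any fit. It was at 0.0571, 2.16 and 6.52 CPM at day 5 and at 0, 0.323 and 0.748 CPM at day 14 after delay, and at 0.0644, 2.97 and 4.51 CPM and then 0, 0.796 and 1.93 CPM after immediate repair. Without the filter its fall in delayed macrophages passed (edgeR adjusted p = 0.0476), which rests on values of a few CPM. Some partners changed with the day. Of 9 extracellular and 31 intracellular partners tested, 1 and 8 changed in immediate and 0 and 7 in delayed macrophages, against 11.8% and 9% of all genes, so that the extracellular share was no higher than that of all genes. Src rose by 1.31 (SE 0.32) and 2.42 (SE 0.32), the actin regulator Evl by 0.76 (SE 0.12) and 0.72 (SE 0.12), and the adaptor Nck1 by 0.52 (SE 0.13) and 0.43 (SE 0.13). Cdc42 fell by 0.34 (SE 0.06) and 0.23 (SE 0.06), Rhoa by 0.27 (SE 0.08) and 0.32 (SE 0.08), and Pitpna, a lipid carrier of netrin signalling, by 0.25 (SE 0.08) and 0.42 (SE 0.08). Rasa1 rose by 0.54 (SE 0.11), while Rgs3 fell by 0.94 (SE 0.24) and the heparan sulphate carrier Sdc4 by 0.47 (SE 0.12), in immediate macrophages, and the phosphatase gene Ptpn11 rose by 0.38 (SE 0.12) in delayed ones. In the same libraries 3 of 4 dendritic cell markers tested rose in either repair group (Itgax, Cd74 and H2-Aa), their list's summed median going from 2831 to 10027 CPM in immediate and from 2778 to 8510 CPM in delayed macrophages. Of 6 macrophage markers 3 fell in immediate and 1 in delayed macrophages, Itgam by 0.83 (SE 0.11) and 0.89 (SE 0.11). Their part in the partners' changes was not tested. Scaling by library size alone moved the median of all genes in immediate macrophages from 0.01 to 0.18 and the share of calls that were higher from 45.1% to 82.6%, and that share in delayed macrophages from 49.8% to 65.0%.

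SC and macrophages of the same bridges are described side by side for the members that SC expressed. Each member that passed the filter here reached 6 libraries through SC, and none did through macrophages, so the choice favoured members higher in SC. The levels are therefore given as a description, with no test. Over all genes, 35.6% at day 5 and 36.9% at day 14 were higher in SC. Efna2 was higher in SC in 16 of 16 mice at day 5 and in 15 of 15 at day 14, with medians of 49.5 against 0.684 CPM and of 30.3 against 0.285 CPM. Efnb2 was higher in 15 of 16 and 11 of 15 mice. Slit2 was higher in 9 of 16 and 15 of 15 mice, at 18.6 against 0 CPM (medians) at day 14. Ephb6 was higher in 12 of 16 and 15 of 15 mice, at 20.3 against 0 CPM at day 14.

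At day 14 several Eph receptors were also read in SC. Epha5 had a median of 3.83 CPM and a mean of 5.85 CPM in SC, where 2 of 15 libraries were at 0. It was at 0 in all 15 macrophage libraries and higher in SC in 13 of 15 mice. The SC mean was 30.7 times the highest macrophage floor of 3 counts, and the median, being lower, was fewer times that floor. Ephb2, Ephb3 and Ephb4 had medians of 3.63, 4.07 and 9.47 CPM in SC and of 0 CPM in macrophages, and each was higher in SC in 13 of 15 mice. Epha7 was higher in 14 of 15 mice, the ligand Efnb1 in 15 of 15 and Slit3 in 12 of 15. Scaling by library size alone moved the median of all genes in this comparison from 0.05 to 0.31 at day 5 and from 0.11 to 0.49 at day 14, and the share of calls higher in SC from 54.4% to 68.6% and from 57.3% to 77.1%.

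Per kilobase of exon, the leading members differed between the kinds of library. The length joins the exons of all annotated transcripts, so members with long joined exons may read low on this scale. These include Slit2 (25433 bases), Unc5c (19135), Epha5 (16739) and Robo1 (16511). In the stump Ntn1 led after immediate repair (mean 30.4 CPM per kilobase) and Ephb4 after delayed repair (24.3), and Slit3 was at 17.8 after immediate and 22.5 after delayed repair. Efnb1 led the ephrins after immediate repair (18.3 against 8.15 for Efna1), and after delay Efna1 (13.9) and Efnb1 (13.8) were level. Robo4 led the Robo receptors (7.39 and 11.1) and Unc5b the netrin receptors (3.55 and 8.39). In SC Efna2 led every group, with means of 14.3 to 32.4 CPM per kilobase. Second came Ntn5 in immediate SC at day 5 (5.29) and Ephb6 at day 14 (5.65 after delayed and 6.20 after immediate repair). In macrophages no member had a group mean over 0.55 CPM per kilobase.

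Some members lie near each other in the genome (GRCm38, GENCODE M21 annotation). Efna1, Efna3 and Efna4 lie in a row on chromosome 3 with gaps of 32.8 and 10.4 kb, and Efna1 alone of them was high enough to be tested in the stump. Robo4 (chr9:37401897-37415115) and Robo3 lie tail to tail 0.554 kb apart, at 57.7 and 0.255 CPM (medians) in delayed stump. Ephb2 and Epha8 are 93.4 kb apart on chromosome 4, at 31.4 and 0.140 CPM. Robo1 (chr16:72308306-73046095) and Robo2 are 846 kb apart on chromosome 16, and Robo1 rose while Robo2 stayed below the filter. Ephb6 and Epha1 are 738 kb apart on chromosome 6, at 4.83 and 8.68 CPM in delayed stump and at 7.57 and 8.83 CPM in immediate stump, and neither was called.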

How the data were processed

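The members and the lists of partners and markers were chosen with earlier results of these data known. The authors trimmed reads with cutadapt 1.8, aligned them to mm10 with TopHat2 2.1.1 and used Cufflinks 2.2.1 and Cuffnorm, per the submitters' notes. The deposited tables hold estimated counts per gene. The program that wrote them is not given in the sources used here, and 0.951 to 1.18% of values were not whole, so they were rounded. Sorted-cell libraries came from SMART-Seq amplified cDNA and stump libraries from rRNA-depleted RNA. Each kind was tested on its own, except SC against macrophages. For the levels printed, stump libraries were scaled on their own, and SC and macrophage libraries of both days together. Genes needed 5 CPM in 6 libraries. Counts were tested with the edgeR 4.0.16 quasi-likelihood test (R 4.3.3) with TMM scaling and Benjamini-Hochberg adjustment over all genes tested, with calls at an adjusted p under 0.05. Tests between repair groups were fitted within 1 cell type and day, and tests between days over the 4 groups of a cell type. Marker sums were compared by exact permutation. Alternatives were DESeq2 1.42.0, limma-voom (limma 3.58.1), library size scaling, other filters, sex as a covariate, the replicate block and leaving out each library. The tests were checked on simulated data. Named genes were the members called (or the 3 with the smallest p), those highest per kilobase or at 0 in all libraries, up to 3 rising and 3 falling partners with the smallest p, and markers. Between days, the further partners called were named after their values were seen. SC and macrophages of the same mouse deviated together (correlation over 0.1 in 11 of 16 mice at day 5 and 11 of 15 at day 14), and a block by mouse changed no member's call. No 2 libraries were identical. The labels give the regenerative bridge as the source of all samples, the stump ones included, while titles and methods name the stump.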

Additional observations from a re-analysis of the deposited data

Results flagged for a closer look

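Of 82 groups of member levels checked for a library far from the rest, 2 stood out, where chance gives about 1 in 20. Slit2 was at 27.9 CPM in delayed stump replicate 3, while the other 8 delayed libraries lay between 58.9 and 115 CPM. Its gap to the nearest was 0.524 of the range, against a critical value of 0.493. Without this library Slit2 remained lower after delay, within the range of -1.36 to -1.17 on the log2 scale over all single libraries left out. Slit3 was at 85.7 CPM in delayed stump replicate 7, while the other 8 lay between 126 and 163 CPM, a gap of 0.605 of the range against 0.493. Slit3 was not called with all libraries (edgeR adjusted p = 0.107) and passed without this one or without immediate replicate 4 (edgeR adjusted p from 0.0191 to 0.0367).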

How the results depend on the processing

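In the stump the count of 13 members was 13 with DESeq2 and with library size scaling, 14 with limma-voom and with sex as a covariate, 15 with filterByExpr, 17 with no filter and 12 with the replicate block, which lost Ntn1 (edgeR adjusted p = 0.0845), and 10 to 14 with single libraries left out. Same-numbered stump libraries deviated together in 1 of 7 pairs (correlation over 0.1), and SC in 3 of 7 at both days. Macrophages did so in 7 of 8 at day 5 and 6 of 7 at day 14, with correlations up to 0.49 and 0.50. Replicates 1 to 4 were male in every group and later ones female. The main fits, those of macrophages included, held no term for the replicate number or for sex. The sign changed for some members that were not called. Efnb2 in the stump was -0.014 with no filter. Efna5 in the stump was 0.17 with limma-voom, 0.018 with sex and 0.21 with the replicate block. In day 5 SC Efnb2 was 0.029 with limma-voom and 0.079 with the replicate block, and in day 14 SC Efna2 was 0.27 with limma-voom. With single libraries left out, Efna5 ran from -0.11 to 0.20, Efnb2 from -0.081 to 0.11 and Epha1 from -0.032 to 0.29 in the stump, and Efna2 from -0.35 to 0.016 in day 14 SC. Between days, macrophages after delay had 1 call (Epha7) with filterByExpr and with no filter. Immediate SC had 0 calls with DESeq2, limma-voom, the replicate block and only the 2 groups compared, and 0 to 1 with single libraries left out. Delayed SC had 2 (Epha4, Unc5a) with filterByExpr and with no filter and 1 (Efnb1) with limma-voom. SC against macrophages passed 4 members at day 5 and 11 at day 14, all let through the filter by their SC level and read as no result. The counts were 14 (filterByExpr, with 7767 of 12981 genes) and 17 (no filter, 9137 of 17583) at day 5, 17 (8108 of 13363) and 25 (9355 of 17965) at day 14, and 3 to 4 and 10 to 11 with single libraries left out. Looser filters test more low genes, and the cause of the other changes was not tested. Depth limits what can be said of members near the floor of 3 counts.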
